A study of Bos taurus with 16 samples.

Results

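A group of 16 transcripts was abundant in mature bovine oocytes and at the 2- and 4-cell stages, and was at trace level from the 16-cell stage to the blastocyst. They are the named loci, 16 of 24820 in a table of 27393, that met 3 limits on the normalised read count (reads divided by a size factor of the sample). The count had to be 100 or more in all 6 samples of the first 3 stages and 10 or less in all 8 samples from the 16-cell stage on. Each 2- and 4-cell value also had to exceed the lower of the 2 oocyte values divided by 4. These limits fixed the fall from the early to the late stages, so that fall is a description and carries no test. The 8-cell values (8C) were not used in choosing the genes.

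The samples were single in vivo matured oocytes at metaphase II (MII) and single in vivo developed embryos of Bos taurus, 2 at each of 8 stages and 16 in all. The embryos were at the 2-, 4-, 8- and 16-cell stages (2C to 16C), early morulae (EM), compact morulae (CM) and blastocysts (BL). No treatment or genotype separated the groups, and the labels do not say which animals the oocytes and embryos came from. RNA of each was amplified in 2 rounds before sequencing, so a value is a share of the reads of one library, and a fall in the number of molecules cannot be told apart from a fall in the share they take. Loss from every cell and loss from some cells cannot be told apart either in whole embryos.

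A growing oocyte transcribes and stores mRNA that the embryo lives on after fertilisation, when its own genome is nearly silent. Stored mRNA is translated or destroyed on a schedule. Removal often begins with shortening of the poly(A) tail by deadenylases, and the clearance of maternal mRNA overlaps in time with embryonic genome activation (EGA), which in cattle is placed around the 8-cell stage.

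The 16 genes have varied roles. ZP2 encodes a protein of the zona pellucida, the coat of the egg, and LOC782386, which the RefSeq gene table names NLRP14, belongs to a family with several oocyte members. BTG4 encodes an adaptor that brings the CCR4-NOT deadenylase to maternal mRNA. WNT5A and NRG3 encode secreted signals, a Wnt ligand and a neuregulin that acts on ErbB receptors, KNG1 encodes kininogen, the precursor of bradykinin, and RGS16 a protein that shortens G protein signalling. IRF8 is a transcription factor of the interferon regulatory family, CDK17 a cyclin-dependent kinase and DCLRE1A a nuclease of the repair of DNA crosslinks. CCDC135, named DRC7 in RefSeq, is part of the regulatory complex of ciliary dynein. CMYA5 is known from striated muscle, PEX5L is related to the receptor that imports peroxisomal proteins, and LRP2BP binds the receptor megalin. KIAA1244 and LOC100851264 are given by name only, since neither was found in the gene table. Of the other 14, 12 matched by symbol, 1 by a synonym and 1 by gene ID.

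The 2 single 8C embryos stood apart from each other for these genes, and this is set out before the values. Recovered reads ranged from 607672 to 3379426 per sample. The 8C libraries were among the smaller, with 808192 reads in replicate 1 and 1039587 in replicate 2, so that 3 reads, taken as the smallest detectable number, correspond to 5.40 and 3.44 normalised reads. In replicate 1 the 16 genes had 16 reads in all, with 9 genes at 0 and none above 3 reads. In replicate 2 they had 570 reads, with 1 gene at 0 and 4 at 3 reads or fewer. Floors and intervals below cover counting error only, because amplified copies of one molecule were counted separately.

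**Figure D1:**
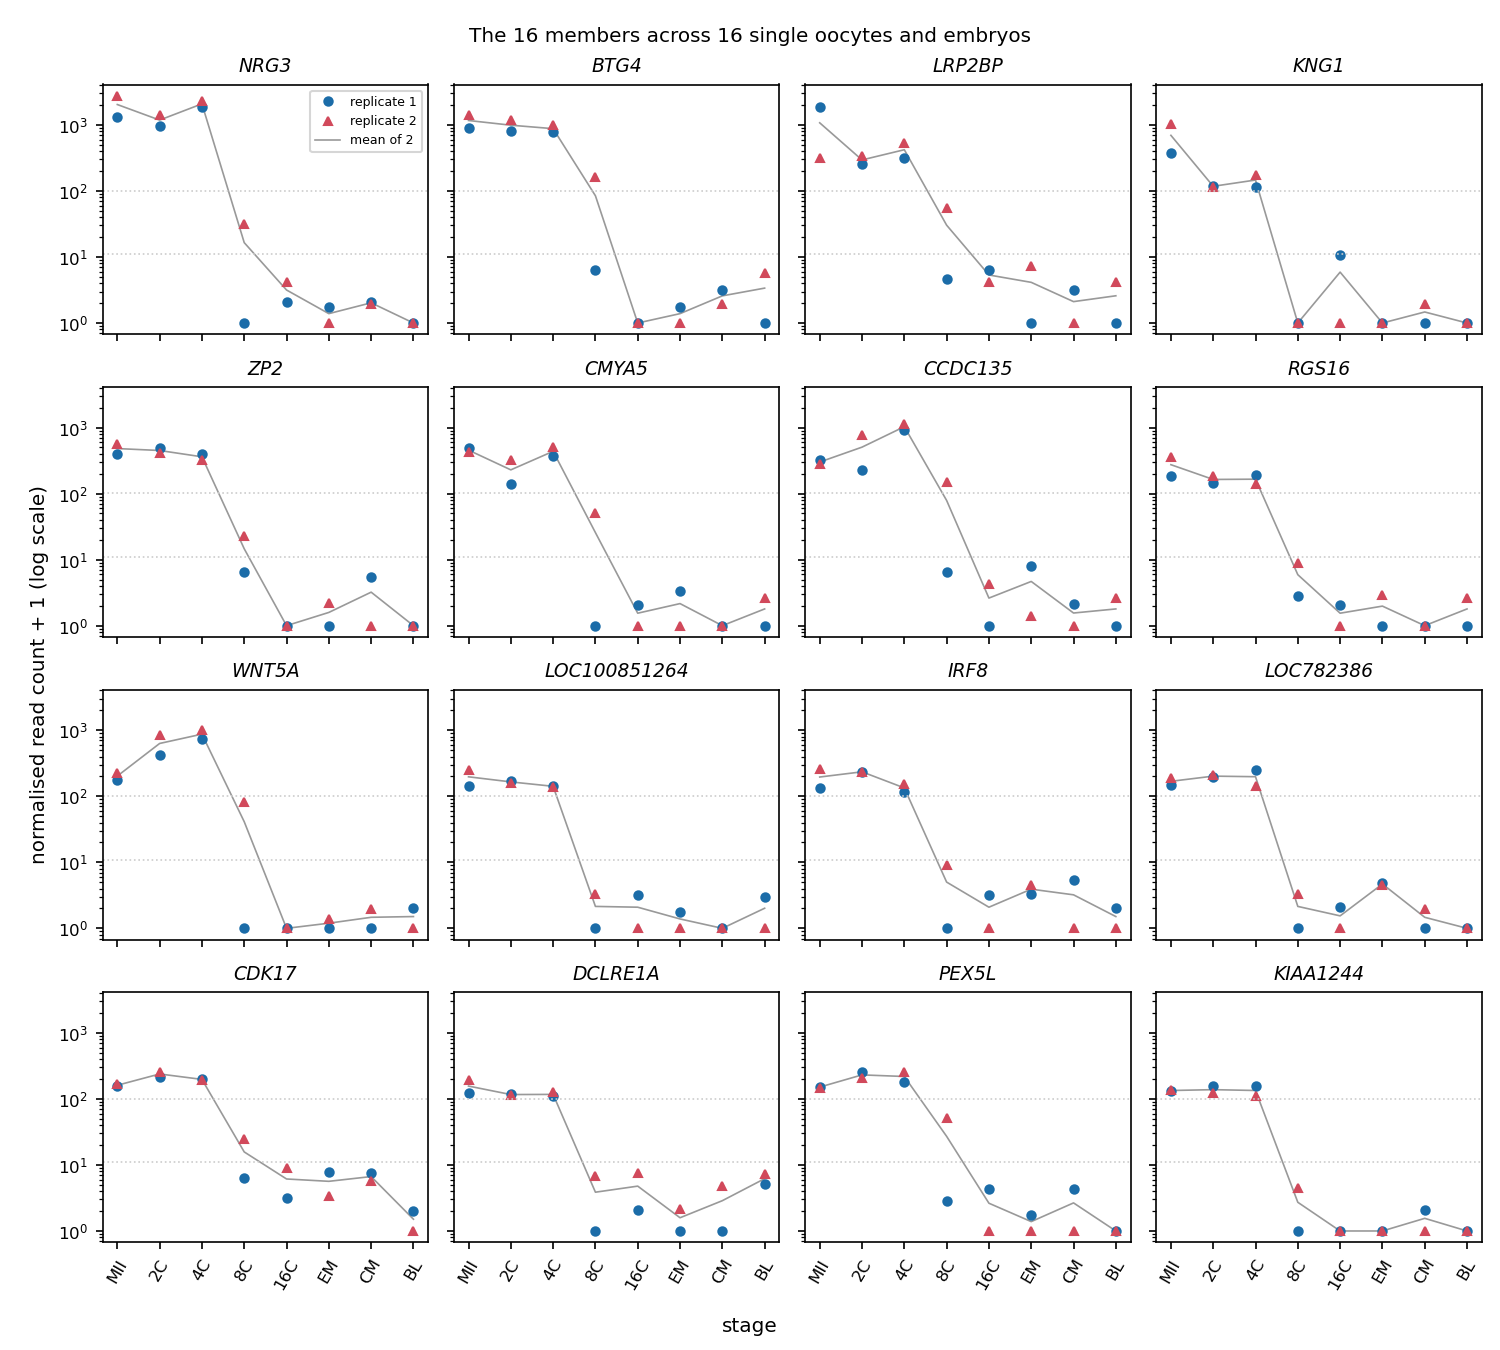
Normalised read count plus 1 (log scale) of each of the 16 genes at 8 stages, with circles for replicate 1, triangles for replicate 2, a line through the mean of 2 and dotted lines at the limits of 100 and 10. Early values lie above the upper line and values from 16C on lie below the lower one by the choice of the genes, and the 2 embryos at 8C lie far apart for WNT5A, CMYA5, NRG3, BTG4 and CCDC135.

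Summed over the 16 genes, the level was 3343 and 3590 CPM (reads scaled to the total of the library) in the oocytes, 4099 and 5578 CPM at 2C and 5152 and 6204 CPM at 4C. It was 19.8 CPM in 8C replicate 1 and 548 CPM in replicate 2. From 16C on the sums lay between 8.84 and 29.3 CPM. Thus 8C replicate 1 lay inside the range of the later embryos and replicate 2 between the early and late ranges. As a share of the library, the genes took 0.568% of the reads at 4C (mean of 2) and 0.0284% at 8C. Against the 4C sum of normalised reads, 8C replicate 1 held 0.383% and replicate 2 held 8.69%.

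**Figure D2:**
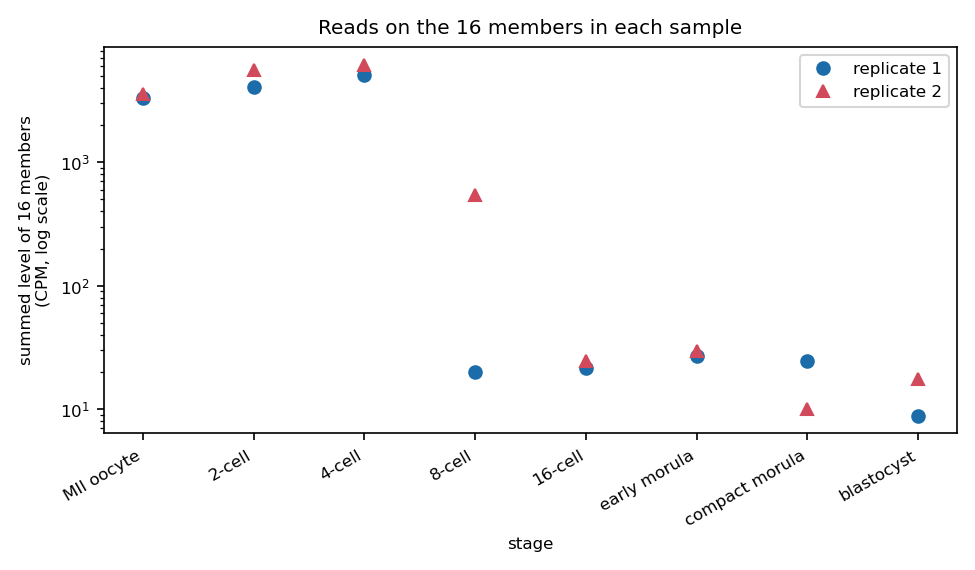
Summed level of the 16 genes in CPM (log scale) in each of the 16 samples by stage, with circles for replicate 1 and triangles for replicate 2. The sums were 19.8 and 548 CPM in the 2 embryos at 8C, while all later samples lay between 8.84 and 29.3 CPM.

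BTG4 gave the most 8C reads of the 16. Its normalised read counts were 904 and 1428 in MII oocytes, 798 and 1181 at 2C, 771 and 983 at 4C, 5.40 and 162 at 8C, and at most 4.75 later. The early groups overlapped, and the 2 embryos at 8C lay on both sides of the limit of 100 that defined the early level. In 8C replicate 1 there were 3 reads of BTG4, 0.616% of the 4C mean with an exact Poisson 95% interval of 0.127 to 1.80%. In replicate 2 there were 141 reads, 18.4% of the 4C mean (15.5 to 21.7%). BTG4 was thus at the floor in one 8C embryo and well above it in the other, and both 16C embryos had 0 reads of it.

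ZP2 differed less between the 8C embryos. Its normalised read counts were 391 and 569 in oocytes, 482 and 416 at 2C, 398 and 322 at 4C, 5.40 and 21.8 at 8C, and 0 in 6 of the 8 later samples. The 3 reads of 8C replicate 1 gave an interval of 0.310 to 4.39% of the 4C mean, and the 19 reads of replicate 2 were 6.05% of it (3.64 to 9.45%), so the intervals overlapped. LOC782386 (NLRP14) had 148 and 187 normalised reads in oocytes, 195 and 206 at 2C and 249 and 145 at 4C. Its 0 and 2 reads at 8C were at or below the floor in both embryos, so that a difference between them was not detectable at this depth.

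Among the signalling genes, WNT5A had higher means at 2C and 4C than in oocytes. Its normalised read counts were 177 and 225 in oocytes, 419 and 840.4 at 2C, 731 and 1013 at 4C, 0 and 80.3 at 8C, and never more than 1.01 later, which was 1 read. Replicate 1 at 8C had no read of WNT5A, and the floor of 3 reads was 0.620% of the 4C mean, whereas replicate 2 had 70 reads or 9.21% of it (7.18 to 11.6%). The WNT5A value of replicate 2 was 14.9-fold the floor of replicate 1, where the exact Poisson upper limit was 0.762% of the 4C mean.

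NRG3 was 1316 and 2755 in oocytes, 961 and 1405 at 2C and 1887 and 2279 at 4C. At 8C it was 0 and 31.0, with 0 and 27 reads. Even in the embryo that retained more, NRG3 stood at 1.49% of its 4C mean (0.980 to 2.16%), an interval that lay below those of PEX5L, BTG4, CCDC135, LRP2BP, CDK17, CMYA5, WNT5A, ZP2 and IRF8 in that embryo.

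KNG1 was the one gene of the 16 without a read in either 8C embryo. It was 370.1 and 1019 in oocytes, 119 and 115 at 2C and 115 and 175 at 4C, so both 2C and both 4C embryos lay below both oocytes. The floor of 3 reads was 3.72% of its 4C mean in 8C replicate 1 and 2.37% in replicate 2, and the exact Poisson upper limits were 4.57 and 2.91%. Its highest later value was 9.80 normalised reads (9 reads) in 16C replicate 1, just inside the limit of 10, and all but 1 of the other 7 late samples were at 0. RGS16 was 184 and 363 in oocytes, 143 and 182 at 2C, 189 and 139.7 at 4C, and 1.80 and 8.03 at 8C. Its 1 and 7 reads at 8C came to 1.10% (0.0277 to 6.11%) and 4.88% (1.96 to 10.1%) of the 4C mean, with overlapping intervals.

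CCDC135 had both 4C embryos above both oocytes, and its 2C embryos overlapped the oocytes. Its normalised read counts were 318 and 281 in oocytes, 227 and 782 at 2C, 925 and 1135 at 4C, and 5.40 and 150.2 at 8C. The 3 and 131 reads at 8C came to 0.525% (0.108 to 1.53%) and 14.6% (12.2 to 17.3%) of the 4C mean. CMYA5 was 482 and 428 in oocytes, 137 and 319 at 2C, 364 and 508 at 4C, and 0 and 49.3 at 8C. In 8C replicate 2 CMYA5 held 11.3% of its 4C mean (8.19 to 15.2%). This was 9.12-fold the floor of replicate 1, where the exact Poisson upper limit was 1.52%.

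PEX5L had the highest share of its 4C mean in 8C replicate 2, with an interval that overlapped those of BTG4, CCDC135, LRP2BP and CDK17, but not in replicate 1. This is the smaller of 2 PEX5L loci, and at the other, with 75666 reads, 8C replicate 2 held 4.95% of the 4C mean. It was 152 and 148 in oocytes, 252 and 209 at 2C, 177 and 258 at 4C, and 1.80 and 50.5 at 8C. In 8C replicate 2 PEX5L had 44 reads, 23.2% of its 4C mean (16.8 to 31.1%), against 1 read in replicate 1, 0.828% (0.0210 to 4.61%). LRP2BP had the widest spread between oocytes, 1839 and 312, a 5.90-fold difference, and was 251 and 337 at 2C, 315 and 525 at 4C, and 3.60 and 55.1 at 8C. The LRP2BP remainder in 8C replicate 2 was 13.1% of the 4C mean (9.66 to 17.4%).

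CDK17 was level between the 4C embryos and had the most reads of the 16 after clearance. It was 154 and 166 in oocytes, 217 and 259 at 2C, 197 and 196 at 4C, 5.40 and 24.1 at 8C, and between 0 and 8.09 later. Its 21 reads in 8C replicate 2 were 12.3% of the 4C mean (7.58 to 18.7%) and its 3 reads in replicate 1 were 2.75% (0.567 to 8.04%), so the intervals overlapped. IRF8 was 133 and 256 in oocytes, 233 and 235 at 2C, 115 and 150.3 at 4C, and 0 and 8.03 at 8C. DCLRE1A was 122 and 189 in oocytes, 117 and 114 at 2C, 108 and 124 at 4C, and 0 and 5.73 at 8C. With 7 and 5 reads in 8C replicate 2, IRF8 and DCLRE1A had intervals that overlapped those of replicate 1.

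KIAA1244 was 131 and 135 in oocytes, 154 and 121 at 2C, 157 and 109.6 at 4C, and 0 and 3.44 at 8C. LOC100851264 was 141 and 251 in oocytes, 170.1 and 158 at 2C, 143 and 138 at 4C, and 0 and 2.29 at 8C. Both stood at or under 3 reads in either 8C embryo. The other KIAA1244 locus, with more reads, held 14.4% of its 4C mean in 8C replicate 2.

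Across the 16 genes, 15 were higher in 8C replicate 2 than in replicate 1 and KNG1 was equal, beside 49.5% of the 9670 loci kept for the model that were higher in replicate 2. The median difference, replicate 2 minus replicate 1 on the log2(normalised count + 1) scale, was 2.96 over the 16 genes and 0.00 over all loci kept. With values scaled to total reads it was 2.74 and 0.25. For 7 genes (PEX5L, BTG4, CCDC135, LRP2BP, CMYA5, WNT5A and NRG3) the counting intervals of the 2 embryos did not overlap, and for the other 9 they did. These intervals compare 2 single embryos and their libraries, and with 1 embryo on each side no test of a difference in timing was possible. In replicate 2, 9 genes were above the limit of 10 that all later samples met, and in replicate 1 none was.

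**Figure D3:**
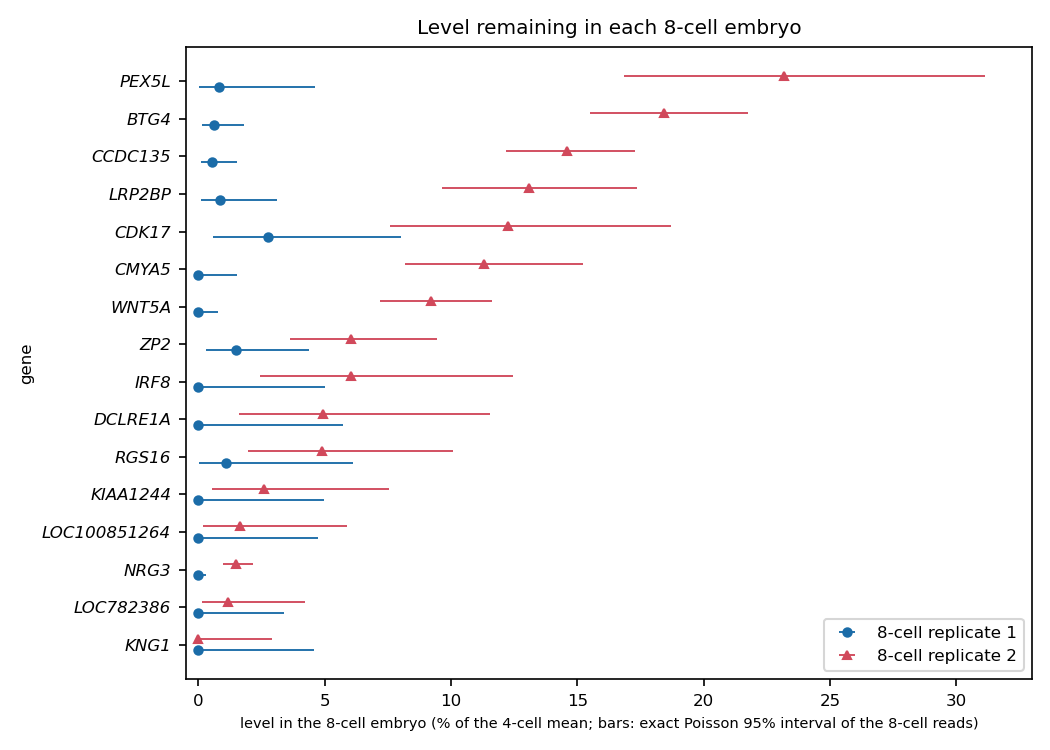
Level of each of the 16 genes in the 2 single 8C embryos as a percentage of the 4C mean, with bars for the exact Poisson 95% interval of the 8C reads. The points of replicate 1 (circles) lay at 2.75% or less, with upper limits of up to 8.04%, and in replicate 2 (triangles) the points of 6 genes exceeded 10%, with PEX5L at 23.2%.

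In 8C replicate 2 the 16 loci held unlike shares of their 4C means. Whether the genes differed in their remainder was not tested, since the intervals cover counting error only. Of the 16, 6 held over 10% of the 4C mean (PEX5L, BTG4, CCDC135, LRP2BP, CDK17 and CMYA5) and 5 had point values under 3% with upper limits of up to 7.55% (KIAA1244, LOC100851264, NRG3, LOC782386 and KNG1). These are values of single loci, and other loci of the same name held other shares for PEX5L (4.95%), KIAA1244 (14.4%) and NRG3 (9.82%). The further CMYA5 loci, with only 147 and 36 reads in all, held 0 and 68.3%. NRG3 and BTG4, with at least 1214 and 836 reads in every early sample, differed here from 1.49% to 18.4% with intervals far apart. In replicate 1 no gene had more than 3 reads, which came to 2.75% of the 4C mean for CDK17 and less for the others, but the upper limits of several genes there exceeded this, up to 8.04% for CDK17.

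The same order of the 2 embryos was present in other early transcripts with low late values. Among the 532 other named loci at 100 or more in all early samples, those whose highest late value was under 5% of the 4C mean (28 loci) had a median difference of 4.07 and 25 of them were higher in replicate 2. Loci at 5 to 25% (108) had a median of 1.31, with 87 higher. Loci at 25 to 100% (214) had a median of -0.00, and 107 were higher. Loci over 100% (182) had a median of -0.47, with 49 higher. The difference between the embryos was thus not particular to the 16 genes, whose own highest late value reached 6.74% of the 4C mean.

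**Figure D4:**
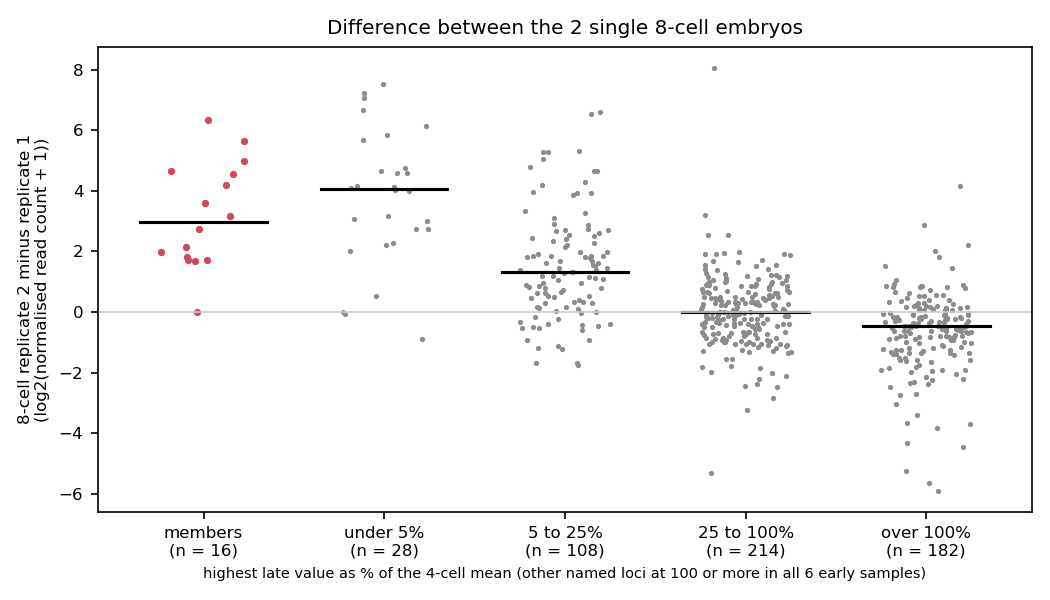
Difference between the 2 single 8C embryos (replicate 2 minus replicate 1, log2(normalised read count + 1)) for the 16 genes and for 532 other named loci abundant in all early samples, grouped by their highest late value as a percentage of the 4C mean, with bars for medians. Medians were 2.96 for the 16 genes and 4.07, 1.31, -0.00 and -0.47 for the groups from under 5% to over 100%.

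Of those 28 loci, 17 missed only the late limit of 10, 3 missed only the limit against the oocyte and 8 missed both. EIF4E1B, an oocyte form of the cap-binding translation factor, missed only the late limit, reaching 14.4 normalised reads late, and was 18.0 and 2859 at 8C. NLRP8 also missed only that limit, reaching 153 late, and was 114 and 3122 at 8C. H1FOO, the linker histone of the oocyte, missed both limits, and was 30.6 and 1606 at 8C. ACCSL, at 247 and 4278 at 8C, and one locus of WEE2, a kinase that holds the oocyte in meiotic arrest, at 75.7 and 109, also missed both.

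Other sets of loci also differed between the 2 embryos at 8C. The 15 named loci at 10 or less in all early samples and at 100 or more in all late ones had a median difference of -0.97, and 1 of them was higher in replicate 2. Markers of blastocyst lineages, fixed as a list of 22 genes, summed to 6355 CPM in 8C replicate 1 and 3050 CPM in replicate 2. They summed to 619 to 813 CPM before 8C and 3222 to 5978 CPM after it. Most of the 8C sum was POU5F1, which was 8628 and 3252 normalised reads in the 2 embryos and 284 to 505 before 8C, whereas NANOG was higher in replicate 2 (7.21 and 84.9). Markers of cumulus and granulosa cells (23 genes) summed to 390 and 911 CPM in the 2 embryos at 8C. Their part in the difference between the embryos was not tested.

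Attached somatic cells were looked for with the same marker lists. Of the 23 cumulus and granulosa genes, 13 had no reads in the oocytes, among them FOXL2, AMH and INHA. These 3 are listed at 0 in every sample, as are DNMT3B, CBX3 and HDAC8 of the chromatin list, so a 0 at a locus does not show that the transcript is absent. The list summed to 578 to 2032 CPM in early samples and 551 to 925 CPM from 16C on, and most of it was STAR, at 1075 to 2282 normalised reads early. HAS2, the hyaluronan synthase of cumulus expansion, was 143 and 245 in oocytes, 98.1 and 367 at 2C, 342 and 309 at 4C and 0 and 21.8 at 8C, and it missed the early limit in 1 sample and the late limit in 1 sample. Of 11 sperm and testis genes, 10 had no reads in oocytes, and the list summed to at most 2.22 CPM early. The part of these genes in the levels of the 16 was not tested.

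By limma on log2(normalised count + 1), all 16 genes were lower at 8C than at 4C at a Benjamini-Hochberg adjusted p under 0.05, beside 19.1% of the 9670 loci tested. Both 8C embryos were below both 4C embryos for all 16, beside 35.7% of loci. The choice of the genes required 100 or more at 4C, so nothing is read from this count. The log2 changes ran from -3.96 for CDK17 (SE 0.77, adjusted p = 0.0013) to -8.52 for NRG3 (SE 1.09, adjusted p = 7.09e-05), with a median of -5.48 beside -0.08 over all loci. Where an 8C embryo was at 0 the fitted change depends on the pseudocount of 1, and for NRG3 it was -6.89 by edgeR and -7.01 by DESeq2. KNG1, at -7.16 by limma, went the other way, with -10.3 by edgeR and -9.10 by DESeq2. By edgeR PEX5L had -2.90, so the ends of the range given above hold for limma only. With 8C replicate 1 left out, so that the 1 remaining 8C embryo was assumed to vary like the other stages, 12 of the 16 were still called, beside 10.5% of the loci in that fit, and LRP2BP, BTG4, CCDC135 and PEX5L were not, with adjusted p from limma between 0.0682 and 0.148. DESeq2 called 15 of the 16, and CMYA5 was not called (adjusted p = 0.103 by DESeq2).

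The choice of the genes also required 10 or less at 16C, so the comparison of 16C with 8C is given as a description and nothing is read from it about the 16. BTG4 fell by 5.01 on the log2 scale (SE 1.12, adjusted p = 0.048 by limma), beside 0.31% of all loci called lower, and no other of the 16 was called. ZP2 had a log2 change of -3.59 (adjusted p = 0.0543 by limma) and CCDC135 one of -3.92 (adjusted p = 0.127). Both 16C embryos were below both 8C embryos for 4 genes, beside 19.2% of loci. The BTG4 call was lost with the replicate number as a block (adjusted p = 0.0526 by limma), with values scaled to total reads (0.061) and without 8C replicate 2 (0.199). Without 8C replicate 1, under the same assumption, 7 of the 16 genes were called lower at 16C, beside 3.57% of the loci in that fit.

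Before clearance no value could fall below the lower oocyte value divided by 4, by the choice of the genes. On the normalised scale the ratio of the 4C mean to the oocyte mean ran from 0.209 for KNG1 to 4.33 for WNT5A, and 12 genes lay between 0.5 and 2. It was above 1 for 7 genes on this scale and for 14 genes when values were scaled to total reads, so 7 genes (BTG4, ZP2, DCLRE1A, LOC100851264, IRF8, RGS16 and CMYA5) changed direction with the scaling. From MII to 2C the median log2 change of all loci was 0.15 on the normalised scale, 0.74 scaled to total reads and 0.30 with TMM factors.

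Under both scalings the ratio was above 1 for WNT5A (4.33 normalised, 7.40 by total reads), CCDC135 (3.44 and 5.79), PEX5L (1.45 and 2.45), CDK17 (1.23 and 2.08), LOC782386 (1.18 and 2.01), NRG3 (1.02 and 1.78) and KIAA1244 (1.00 and 1.70). It was below 1 under both for LRP2BP (0.391 and 0.627) and KNG1 (0.209 and 0.367). WNT5A, CCDC135, PEX5L and CDK17 had both 4C embryos above both oocytes on the normalised scale, beside 32% of loci, and KNG1 had both below, beside 24.3% of loci. The LRP2BP ratio rests on 1 oocyte, since the other (312) lay within the range of the 2C and 4C embryos.

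**Figure D5:**
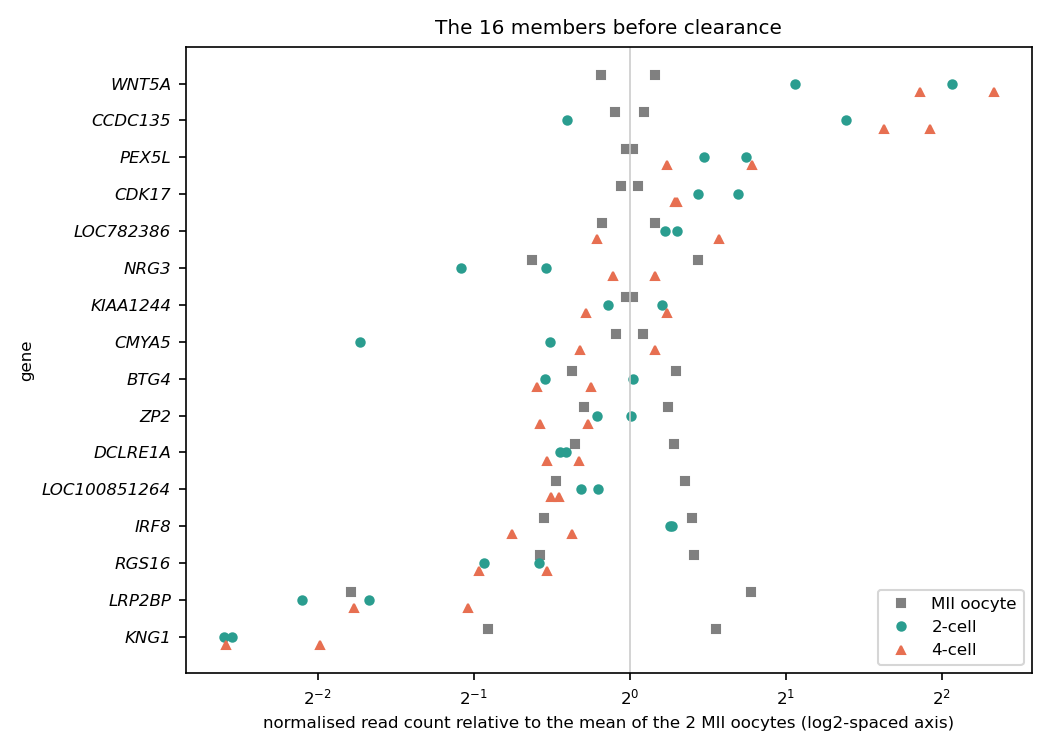
Normalised read count of each of the 16 genes in the 6 early samples relative to the mean of the 2 oocytes (log2-spaced axis), with squares for MII oocytes, circles for 2C and triangles for 4C. WNT5A and CCDC135 reached 4.33 and 3.44 times the oocyte mean at 4C, and KNG1 lay at 0.209 of it.

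The stage steps from MII to 2C and from 2C to 4C were fitted, and 4C was not tested against oocytes. The choice of the genes used the values of all 3 stages, so nothing is read from these counts. From MII to 2C, 0 of the 16 genes were called higher, beside 1.2% of loci, and 0 lower, beside 0.217%. At an unadjusted p under 0.05 there was 1 gene, KNG1 (log2 change -2.39, adjusted p = 0.209 by limma), and edgeR and DESeq2 called 0. Both 2C embryos were above both oocytes for 4 genes (25% of loci) and below for 4 (16.4% of loci). From 2C to 4C limma called 0 of the 16 genes and 0% of all loci in either direction, with 0 of the 16 at an unadjusted p under 0.05 and 0 by DESeq2 and edgeR. WNT5A, with the highest 4C to oocyte ratio, had a log2 change of 1.56 from MII to 2C (SE 1.33, adjusted p = 0.62 by limma). The other 532 abundant early loci had a median 4C to oocyte ratio of 0.610 on the normalised scale and 1.04 by total reads.

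After clearance the 16 genes shared 188 reads over 8 samples, against 58258 reads over the 6 early samples. Of their 128 late values, 67 were 0 and 109 were at 3 reads or fewer. CDK17 had the most late reads, 34, with 1 late sample at 0, followed by LRP2BP with 27, DCLRE1A with 20 and IRF8 with 19. At the other end WNT5A had 3 late reads and KIAA1244 had 1, with 7 of 8 late samples at 0. DCLRE1A still had 4 reads in each blastocyst, 4.06 and 6.34 normalised reads, beside 108 and 124 at 4C. LRP2BP gave the highest late count of any of the genes, 16 reads in EM replicate 2, which came to 6.26 normalised reads after division by the size factor of that sample. The limit of 10 corresponded to between 6 and 25 reads depending on the late sample.

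DCLRE1A, with an early minimum of 108, and KIAA1244, with 109.6, were just inside the early limit, and MYF5 (97.3), FAM58A (96.3), NETO2 (95.8), NR3C2 (92.5) and LSM11 (87.7) missed only that limit. KNG1 with a late maximum of 9.80 and CDK17 with 8.09 were just inside the late limit, and EXT2 (11.2), FER (11.3), PRKACB (11.3), LRRC16A (12.2) and ATXN7L1 (12.2) were just outside it. Only 3 loci failed the limit against the oocyte alone, with lowest ratios of 0.249 for OOSP1, an oocyte-secreted protein, 0.243 for FAM163A and 0.211 for a second WEE2 locus. KNG1 at 0.310 and CMYA5 at 0.320 were the nearest inside, followed by NRG3 at 0.730.

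For 5 of the genes the table holds further loci of the same name, and the counting could have split their reads. PEX5L is the widest case, since its locus among the 16 (XLOC_000285) had 1756 reads in all and the other (XLOC_000762) had 75666. That other PEX5L locus was 13704 and 8572 in oocytes, 9333 and 10845 at 4C, 19.8 and 499 at 8C, against a 4C mean of 10089, and up to 70.8 later. KIAA1244 had 1103 reads at its locus (XLOC_070548) and 1300 at the other (XLOC_070248), where values were 289 and 270 at 4C, 0 and 40.1 at 8C and at most 1.62 later. The further loci of NRG3 (627 reads against 13966), CMYA5 (147 and 36 against 3039) and KNG1 (56 against 2174) held few reads. At each of these the higher 8C value, where there were reads, was in replicate 2.

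Lists of genes by role place the 16 among related genes, with all counts given for limma. ZP2 and BTG4 are counted in their own lists, and the lists were chosen with earlier results of these data known. Nothing is read from the list counts about the 16. Of 12 oocyte growth factor and zona genes found, 2 were at 100 or more in all early samples, ZP2 and OOSP1, and of 10 tested 8 were lower at 8C than at 4C and 2 higher, with a median log2 change of -4.61, beside 19.1% of all loci lower and 17.7% higher. ZP4, another zona protein, was 281 and 194 at 4C and 0 and 18.4 at 8C, and GDF9, an oocyte growth factor, was 119 and 72.3 at 4C and 0 and 20.6 at 8C. Of 9 genes of the subcortical maternal complex and NLRP family, all 6 tested were lower at 8C, with a median of -4.03, beside 19.1% of all loci lower. The list does not hold LOC782386, which the table gives under that name.

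BTG4 is listed with deadenylation and decay genes. Of 38 found there, 4 were high in all early samples, and CNOT6L, CNOT7 and PAN3, subunits of deadenylases, stayed above 10 in a late sample. Of the 30 tested in that list, 7 were lower at 8C and 4 higher, beside 19.1% and 17.7% of all loci, with a median of -0.10, beside -0.08 over all loci. The lists of maternal RNA binding (60 found), meiotic arrest and cell cycle (82), chromatin (127) and ubiquitin genes (105) had 8, 8, 10 and 11 genes high in all early samples and none of the 16. Their counts lower at 8C were 18 of 45, 16 of 62, 20 of 97 and 17 of 92 tested, beside 19.1% of all loci, and 6, 6, 16 and 12 were higher, beside 17.7%.
Of 20 oocyte transcription factor and maternal effect genes found, DPPA3 and POU5F1 were high in all early samples but above 10 in a late one, and of 12 tested 4 were lower at 8C and 2 higher, beside 19.1% and 17.7% of all loci.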

How the data were processed

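Values were deposited as a signal: read counts that the authors obtained for 27393 loci after trimming and mapping, each divided by the size factor of its sample. Submitters' processing notes name cutadapt, FastQC, TopHat, Cufflinks and HTSeq. Versions, genome build and handling of multiply mapped reads are not given in the sources used here, so no coordinates or sequences are given. Dividing by the smallest value above 0 gave whole numbers for 100% of values in every sample (tolerance 0.01), and these were used as reads and for CPM. Groups and replicate numbers come from the sample labels.

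The members and gene lists were chosen with earlier results of these data known. As there were under 30 members, the rule for named genes took all of them, plus the 5 loci nearest each limit. List genes, loci grouped by late level, further loci of the same name and the abundant loci named beside them were chosen after values were seen.

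The tests used limma 3.58.1 in R 4.3.3 (moderated, with trend) on log2(value + 1) over all 16 samples and 9670 loci kept by filterByExpr, with Benjamini-Hochberg adjustment at 0.05, two-sided. The 2 samples of a stage are separate oocytes or embryos, so p-values measure only the spread between these samples, and no replicate pair agreed within sampling noise. Alternatives were edgeR 4.0.16 and DESeq2 1.42.0 on recovered reads, total reads, TMM factors, pseudocounts of 0.5 and 5, no filter, the 2 stages alone, a replicate block, each replicate left out and other limits for membership. Names were matched to a RefSeq gene table of ARS-UCD2.0.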

Additional observations from a re-analysis of the deposited data

How the results depend on the processing

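The number of genes meeting the limits was 16, and it became 51 with 50 or more early, 5 with 200 or more early and 34 with 20 or less late. With the limits set on CPM it was 11, of which 6 were among the 16. The count of 16 lower at 8C than at 4C became 10 when only those 2 stages were fitted (6449 loci tested, 14.9% called), was 15 with DESeq2 (11.9% of loci called) and ranged from 12 to 16 with each replicate left out (8.30 to 18.5% of loci called). Among the fits with a replicate left out, it was lowest without 8C replicate 1. The single call at 16C against 8C became 0 with edgeR, total reads, a pseudocount of 5, no filter and the replicate block, and 4 with DESeq2 (0.786% of loci called). With each replicate left out it ranged from 0 to 7. It was 7 without 8C replicate 1 (3.57% of loci called) and 0 without 8C replicate 2 or either 16C embryo. Fitting only those 2 stages gave no value there, since none of the 16 genes passed the filter. The share of 8C reads on the genes ranged from 0.00198 to 0.0548% with each replicate left out. The 0 calls from MII to 2C and from 2C to 4C were 0 in every alternative run. Causes of the changes in these counts were not tested.

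Deviations of same-numbered samples had correlations of -0.26 for MII and 2C, -0.03 for 2C and 4C, -0.02 for 4C and 8C and 0.01 for 8C and 16C. The value of -0.26 was the lowest over 28 pairs of stages. These values gave no sign that equal numbers pair the samples, but they cannot show whether samples shared an animal or a batch. The replicate block changed no other call on the 16 genes, which gave 16, 0 and 0 calls under it for 8C against 4C, MII to 2C and 2C to 4C. Over all loci from MII to 2C, 116 were higher and 21 lower without a block, 94 and 15 with it, and 104 and 18 with crossed numbers, an alternative chosen after seeing the data. Depth limits the 8C remainders, with 3 reads at 3.71 and 2.89 CPM in the 2 embryos. Where a replicate was left out, the lone sample of its stage was assumed to vary like the other stages.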
